A study of Chlorocebus sabaeus with 4 samples.

Results

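The circadian clock is a feedback loop of transcription factors that most tissues carry. CLOCK and BMAL1 activate genes through E-box sites, the PER and CRY proteins switch that activation off, and the NR1D receptors, also called REV-ERBs, repress BMAL1 and other genes through ROR response elements. The PAR bZIP factors DBP, TEF and HLF carry the rhythm onward through D-box sites, and BHLHE40 and BHLHE41, also called DEC1 and DEC2, repress at E-boxes and also answer to other signals such as low oxygen. In the ovary, luteinising hormone is known from rodents to act on clock genes, and BMAL1 is known from mice to be needed for normal progesterone output.

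A set of 10 such genes was followed in the corpus luteum, the progesterone-making gland left by the ovulated follicle: PER1, PER2, PER3, NR1D1, NR1D2, DBP, TEF, HLF, BHLHE40 and BHLHE41. They were chosen by name, with earlier results of these data known. Every probe set whose annotated symbol was one of them was used, out of 19775 genes measured in 4 samples. Of the 10, 8 had probe sets of their own, 23 in all. PER1 and NR1D1 had none, since the annotation gives their 7 probe sets jointly to MIR6883 and to THRA, and no value is given for either. The samples came from 2 adult female vervet monkeys (Chlorocebus sabaeus) aged 16 years, both from a research colony. Monkey 1031 was in a calorie restriction group and monkey 1030 in an ad libitum group, and frozen luteal tissue of each gave a sample 1 and a sample 2. The series title speaks of weight gain and loss, and an animal's samples were meant to be set against each other. Which number was taken first, the body weights, and the hour or luteal stage of collection are not in the labels used here.

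Values are log2 signals of human-designed arrays, 1 array a sample, and each gene is described by its brightest probe set unless stated. A change is sample 2 minus sample 1 within an animal. It has no replicate and no p-value, and "higher" or "lower" is used of it from 2-fold on, as a rule of size. Of the 8 genes, 5 lay at or above the median level of all genes (log2 5.26 over the 4 samples), and PER3, DBP and HLF lay below it. Background shares refer to the 9888 genes above that level with these 3 added.

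Sample 2 of the ad libitum animal was unlike the others: 912 to 1031 genes were 2-fold away from it in each of them, whereas any 2 of the others differed in 122 to 333 genes. It also had the lowest mean log2 level of luteal cell markers. All 11 were measured, and their mean log2 level was 9.64 and 8.70 in samples 2 and 1 of the calorie restriction animal, and 7.03 and 10.30 in those of the ad libitum animal. In sample 2 of the ad libitum animal the 11 ran from 2.54 for PTGFR, the prostaglandin F receptor, to 10.77 for FDX1, the electron donor of side-chain cleavage. In tissue RNA, fewer cells of a type and less RNA per cell cannot be told apart.

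The clock genes divided the 2 animals by the sign of their change, as the samples are numbered. Which number came first is not given, and the signs would coincide if the numbers ran the other way in time in either animal alone. In the calorie restriction animal, sample 2 had less RNA of 2 of the 8 genes by 2-fold or more, BHLHE40 and BHLHE41, and more of none. Both values of BHLHE41 in that animal were below the median level of all genes. In the ad libitum animal, sample 2 had more RNA of 5 of the 8, namely BHLHE41, HLF, PER2, TEF and NR1D2, and less of none. Of all genes, 0.495% were 2-fold higher and 0.738% lower in the calorie restriction animal, and 2.68% higher and 6.58% lower in the ad libitum animal. The median change of the 8 was -0.66 in the calorie restriction animal, against -0.026 over all genes, and 1.43 in the ad libitum animal, against -0.013 over all genes. A negative change in the calorie restriction animal with a positive one in the ad libitum animal was found in 7 of the 8, HLF being the exception, and in 30.2% of all genes. At 1.5-fold, 5 of the 8 were lower in the calorie restriction animal, against 3.94% of all genes, and 6 higher in the ad libitum animal, against 9.55%. With 1.5-fold asked of both, 4 of the 8 had it (PER2, DBP, TEF and BHLHE41), against 1.46% of all genes.

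**Figure D1:**
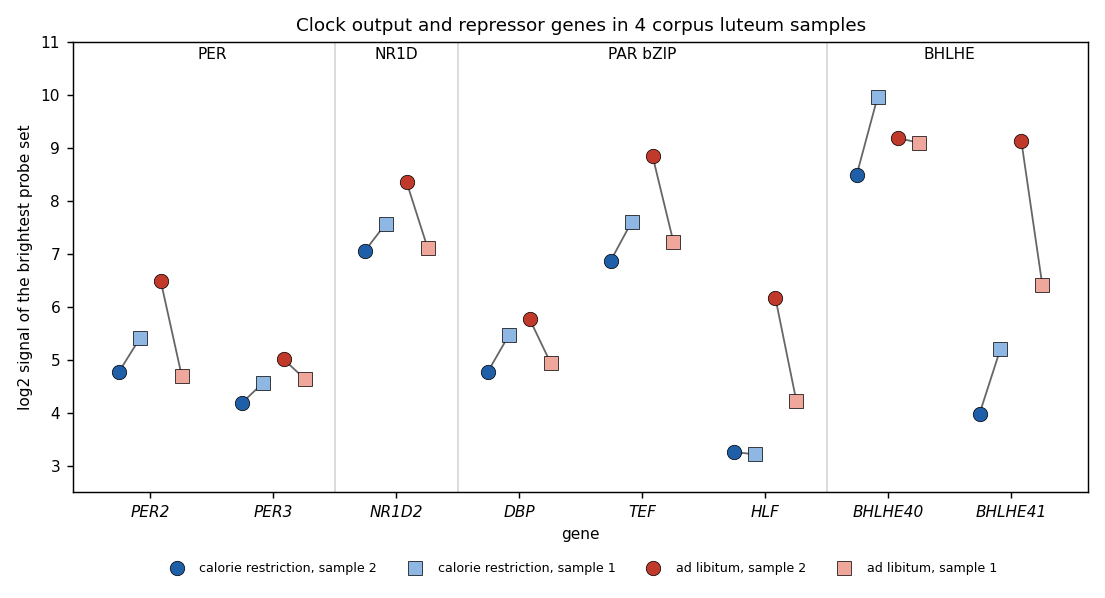
Log2 signal (vertical axis) of the brightest probe set of each of the 8 measured genes (horizontal axis), by sample, with lines joining the samples of an animal. In 6 of the 8 genes sample 2 of the calorie restriction animal is the lowest point, and in 7 of the 8 sample 2 of the ad libitum animal is the highest, BHLHE40 being the exception.

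The PER proteins are the negative arm of the loop. PER2 had log2 signals of 4.77 and 5.40 in samples 2 and 1 of the calorie restriction animal, and of 6.48 and 4.70 in those of the ad libitum animal. One sample, the ad libitum sample 2, was high, and the other 3 lay between 4.70 and 5.40. The change was -0.63 in the calorie restriction animal (1.55-fold) and 1.78 in the ad libitum animal (3.44-fold higher), where 99.6% of all genes had a smaller or more negative change. PER3, the PER gene that the loop can spare in mice, had 4.18 and 4.56 in the calorie restriction animal and 5.01 and 4.64 in the ad libitum animal. Its changes of -0.37 and 0.37 had the signs of those of PER2 but were under 1.5-fold, and its signal was low.

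NR1D2, or REV-ERB beta, is a heme-binding repressor that shares its target sites with the ROR activators. It had 7.05 and 7.57 in samples 2 and 1 of the calorie restriction animal, and 8.34 and 7.11 in those of the ad libitum animal. Again the ad libitum sample 2 was highest and the calorie restriction sample 2 lowest. The change was -0.51 in the calorie restriction animal (1.43-fold) and 1.23 in the ad libitum animal (2.35-fold higher).

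The PAR bZIP factors, which bind D-boxes and are known from mouse liver and kidney for driving detoxification and fat metabolism genes, had a median change of -0.69 in the calorie restriction animal and 1.62 in the ad libitum animal. TEF had 6.87 and 7.60 in samples 2 and 1 of the calorie restriction animal, and 8.84 and 7.22 in those of the ad libitum animal. Its 4 samples took the same order as those of NR1D2, with changes of -0.73 (1.66-fold) and 1.62 (3.08-fold higher). DBP had 4.77 and 5.46 in the calorie restriction animal, and 5.77 and 4.94 in the ad libitum animal. It kept that order, but its changes of -0.69 and 0.82 were under 2-fold in both animals.

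HLF differed from its relatives. It had 3.26 and 3.21 in samples 2 and 1 of the calorie restriction animal, and 6.16 and 4.22 in those of the ad libitum animal. Both calorie restriction samples were under the 25th percentile of gene levels (log2 3.55), where a change can hardly be read, and the change there was 0.05. In the ad libitum animal the change was 1.94 (3.84-fold higher). The animals did not overlap in HLF.

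BHLHE40 and BHLHE41, whose proteins have nearly the same DNA-binding part, went separate ways. BHLHE40 had 8.48 and 9.95 in samples 2 and 1 of the calorie restriction animal, and 9.18 and 9.09 in those of the ad libitum animal. Here the calorie restriction animal's samples were the extremes and the ad libitum samples lay between them. The change was -1.47 in the calorie restriction animal (2.76-fold lower), where 0.20% of all genes had a more negative change, and 0.083 in the ad libitum animal (1.06-fold). BHLHE40 was the one gene of the 8 in which the ad libitum sample 2 was not the highest.

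BHLHE41 had 3.98 and 5.20 in samples 2 and 1 of the calorie restriction animal, and 9.12 and 6.42 in those of the ad libitum animal. The animals did not overlap, and the 4 samples spanned 5.14 on the log2 scale, the widest of the 8 genes. The change was -1.22 in the calorie restriction animal (2.33-fold lower) and 2.71 in the ad libitum animal (6.52-fold higher). Both calorie restriction values lay below the median level of all genes, which BHLHE41 passed by its mean over the 4 samples. In the calorie restriction animal its other probe sets, all dimmer, changed by -0.67, 0.037 and 0.30.

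Set against the BHLHE pair, the 6 measured PER, NR1D and PAR bZIP genes had smaller changes in the calorie restriction animal. Their median was -0.57, with a range of -0.73 to 0.05, whereas the pair had -1.47 and -1.22. For BHLHE41 this rests on its brightest probe set. Averaged over all probe sets, BHLHE41 changed by -0.39 there, BHLHE40 by -1.14 and PER2 by -0.44. Without the less specific probe sets BHLHE41 changed by 0.30, and BHLHE40 had none left. By the brightest probe sets, the changes of the 6 genes in the ad libitum animal ran from 0.37 to 1.94, with 4 of 6 higher. The pair lay on either side of that range, BHLHE41 above it and BHLHE40 below it. In sign BHLHE41 thus went with PER2, NR1D2, DBP and TEF in both animals, while BHLHE40 shared the sign but reached 1.5-fold in the calorie restriction animal alone. The difference between the animals in the change (calorie restriction minus ad libitum) ran from -3.93 for BHLHE41 to -0.74 for PER3 and was -1.55 for BHLHE40. It was 2-fold or more in 7 of the 8 genes, and in 14% of all genes. Having 1 array for each animal and sample number, these differences were not tested.

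**Figure D2:**
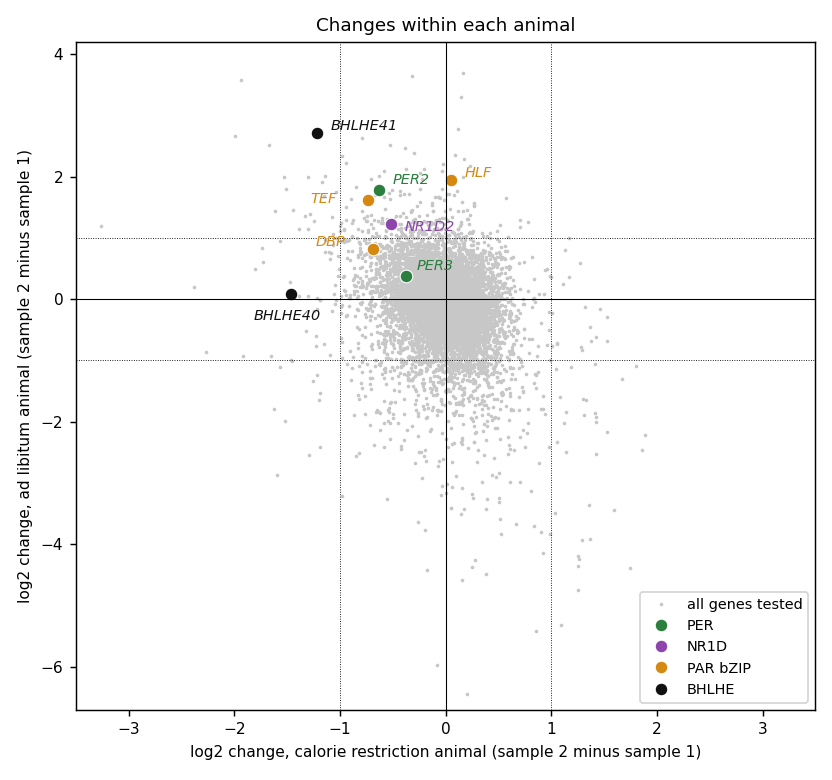
Log2 change (sample 2 minus sample 1) in the calorie restriction animal (horizontal axis) and in the ad libitum animal (vertical axis) for all genes tested (grey) and the 8 clock genes (colours), with dotted lines at 2-fold. Left of the vertical zero line and above the horizontal one lie 7 of the 8, with BHLHE40 close to no change in the ad libitum animal, and HLF stands just right of the vertical zero line.

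The 8 brightest probe sets carried these changes, and the other 15 were dim. The 15 had mean log2 levels of 2.01 to 4.49, and 9 of them were below the 25th percentile of gene levels. None changed 2-fold: their changes ran from -0.81 to 0.46 in the calorie restriction animal and from -0.27 to 0.82 in the ad libitum animal. The second brightest probe set of BHLHE41 had the same signs as the first, with 2.75 and 3.41 in samples 2 and 1 of the calorie restriction animal and 4.26 and 3.43 in those of the ad libitum animal (changes -0.67 and 0.82). The second of BHLHE40 also had its sign in the calorie restriction animal, with changes of -0.81 and 0.24. Averaged over all its probe sets, BHLHE41 changed by -0.39 and 1.10, BHLHE40 by -1.14 and 0.16, PER2 by -0.44 and 0.87, NR1D2 by -0.33 and 0.55, TEF by -0.13 and 0.43 and HLF by 0.13 and 0.90, each in the calorie restriction and the ad libitum animal in turn. All signs stayed, those of PER3 and DBP included, but only BHLHE40 and BHLHE41 then passed 2-fold in an animal. For PER3, DBP, HLF, BHLHE40 and BHLHE41 the brightest probe set has the suffix _s_at, a design that may match more than 1 transcript. Without probe sets of the suffixes _s_at and _x_at, BHLHE41 changed by 0.30 and 0.25, DBP by 0.17 and -0.15, HLF by 0.41 and 0.51 and PER3 by -0.12 and -0.089. BHLHE40 had no probe set left. The PER3 values came from a probe set with the suffix _a_at, a type that was kept. The brightest probe sets of PER2, NR1D2 and TEF are of the stricter design.

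**Figure D3:**
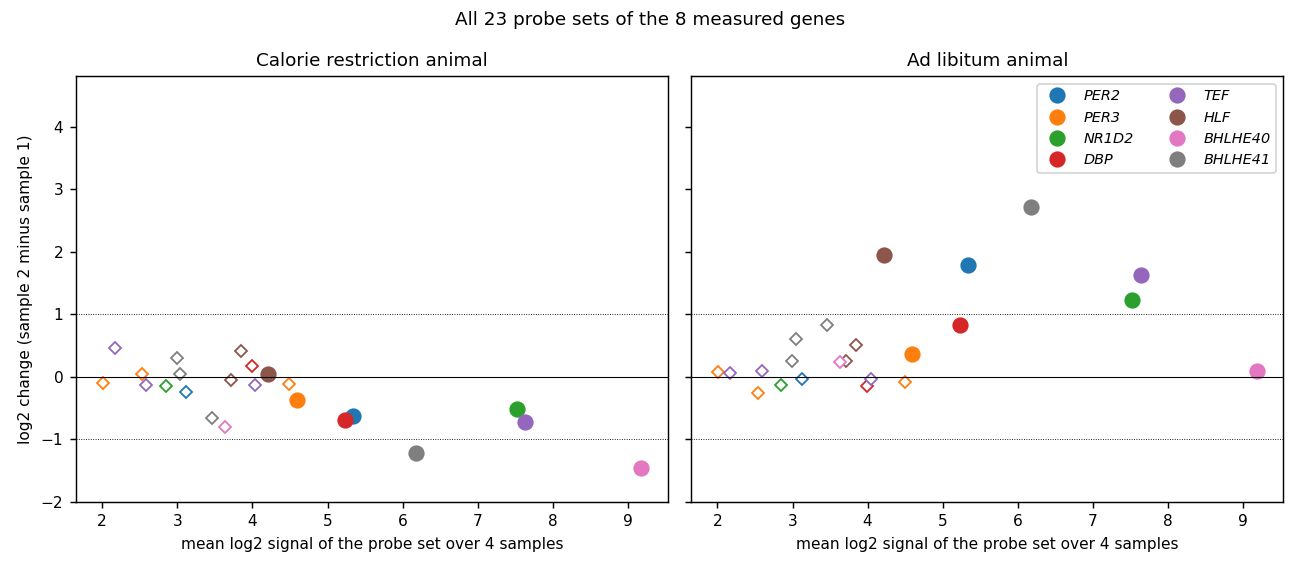
Log2 change (vertical axis) against mean log2 signal over the 4 samples (horizontal axis) for all 23 probe sets, the calorie restriction animal on the left and the ad libitum animal on the right. Filled circles are the brightest probe set of each gene and open diamonds of the same colour its others, and every change of 2-fold or more (dotted lines) belongs to a filled circle.

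Between the animals, the question was whether the genes differed whatever the sample number. With 1 monkey per diet group, diet cannot be told apart from the animal. Of the 8 genes, 7 had a lower mean in the calorie restriction animal, as did 51.7% of all genes. BHLHE41 averaged 4.59 ± 0.86 in the calorie restriction animal and 7.77 ± 1.91 in the ad libitum animal (SD, n = 2 samples each), a log2 difference of -3.17 with an SE of 0.97, or 9.03-fold. HLF averaged 3.24 ± 0.036 in the calorie restriction animal and 5.19 ± 1.37 in the ad libitum animal, a difference of -1.95 with an SE of 0.64. As both calorie restriction values of HLF lay under the 25th percentile of gene levels, their SD and the size of this difference are unsure. PER3 did not overlap either, at a difference of -0.45 with an SE of 0.22. Both calorie restriction samples were below both ad libitum samples in these 3 of the 8 genes, and in 18.7% of all genes. The differences of TEF (-0.80), PER2 (-0.50), NR1D2 (-0.42), DBP (-0.24) and BHLHE40 (0.081) were smaller than the larger of the SDs of the animals' samples. These differences too rest on the brightest probe sets. Averaged over all probe sets of a gene, the difference was -1.03 for BHLHE41, -0.78 for HLF and -0.10 for PER3, and the other 3 probe sets of BHLHE41 ran from -0.77 to 0.014.

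In the limma fit over all genes, no clock gene passed a Benjamini-Hochberg adjusted p of 0.05 between the animals. The adjusted p was 0.860 for BHLHE41 and 0.878 for HLF, from unadjusted values of 0.023 and 0.029. Of 9891 genes, 0 passed (0%), with 523 at an unadjusted p under 0.05, and such a p covers the spread between these samples and not that between monkeys. The result turned on the ad libitum animal's samples. With its sample 1 left out, so that its sample 2 stood alone against the calorie restriction pair, BHLHE41 (-4.53, adjusted p 0.026) and HLF (-2.92, adjusted p 0.0083) were among 475 genes that passed in the limma fit. There the lone sample is assumed to vary like the calorie restriction pair, the one source of spread, and for HLF that pair lay under the 25th percentile, so its p is not to be relied on. With its sample 2 left out, BHLHE41 was at -1.82 and HLF at -0.98, neither passed (smallest adjusted p 0.292), and only 3 of the 8 genes were lower in the calorie restriction animal.

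A change common to both animals was fitted with the animal as a block. It was 0.995 with an SE of 0.46 for HLF, -0.69 with an SE of 0.45 for BHLHE40 and 0.74 with an SE of 0.92 for BHLHE41. None passed in limma (adjusted p 1.00 in each), nor did any of the 9891 genes (0%), with 181 at an unadjusted p under 0.05.

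Of a list of 28 other clock genes, 24 were measured. In the calorie restriction animal none was 2-fold apart (median -0.14). In the ad libitum animal 1 was higher, 3 were lower and the median was -0.073. The gene that was higher was CIART, an E-box repressor also called CHRONO, with 5.46 and 5.78 in samples 2 and 1 of the calorie restriction animal and 6.83 and 5.79 in those of the ad libitum animal (changes -0.32 and 1.04). Its 4 samples thus had a high point where PER2, NR1D2 and TEF had theirs.

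The lower ones were NPAS2, a stand-in for CLOCK, NFIL3, which represses at the D-boxes where DBP, TEF and HLF activate, and RORB, which lay below the median level. NPAS2 had 6.30 and 6.46 in the calorie restriction animal, and 6.24 and 7.69 in the ad libitum animal (changes -0.15 and -1.45). NFIL3 had 7.50 and 7.47 in the calorie restriction animal, and 7.16 and 8.44 in the ad libitum animal (changes 0.029 and -1.28). In both, the ad libitum sample 1 was high and the other 3 were close together. CRY1, the main partner of the PER proteins, changed by -0.17 in the calorie restriction animal and by -0.996, just under 2-fold, in the other. NPAS2, NFIL3 and CRY1 are known as genes with ROR response elements, the sites at which NR1D proteins repress. In the calorie restriction animal NR1D2 changed by -0.51, and NPAS2, NFIL3 and CRY1 by -0.15, 0.029 and -0.17. BMAL1, also a gene that NR1D proteins repress, changed by -0.40 there and by -0.48 in the ad libitum animal. Whether NR1D2 bears on these genes here was not tested. Averaged over its 5 probe sets, NPAS2 changed by -0.88 in the ad libitum animal.

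The activators themselves differed little. CLOCK changed by 0.030 in the calorie restriction animal and 0.10 in the ad libitum animal, and BMAL1 by -0.40 and -0.48, both genes being chosen after their values were seen. CRY2 (-0.72 and 0.12), the deacetylase SIRT1 (-0.74 and -0.16), the AMP kinase subunit PRKAA1 (0.11 and -0.74) and the PER kinase CSNK1E (0.021 and -0.67) had the next largest changes, all under 2-fold.

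Targets of the output factors were read from a list of 16 genes that D-boxes, ROR response elements or BHLHE proteins are known to control in liver or other tissues, 14 of them measured. None was 2-fold apart in the calorie restriction animal (median -0.17). In the ad libitum animal 1 was higher and 1 lower (median 0.12). NAMPT, which makes NAD from nicotinamide, was the lower one, with 9.00 and 8.51 in samples 2 and 1 of the calorie restriction animal and 7.32 and 9.43 in those of the ad libitum animal (changes 0.49 and -2.10). THRSP, the higher one, lay below the median level (1.01). MYC (-0.75 and 0.38), the phosphatidate phosphatase LPIN1 (-0.25 and 0.66) and the carboxylesterase CES2 (-0.26 and -0.66) were under 2-fold.

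Some clock genes also answer to glucocorticoids, cyclic AMP or low oxygen, and lists of those responses were read beside them. Of 14 glucocorticoid response genes, 1 was higher and 1 lower in the calorie restriction animal (median -0.15), and 4 were lower in the ad libitum animal (median -0.67). HSD11B1, which regenerates active cortisol, was at 8.10 and 6.85 in samples 2 and 1 of the calorie restriction animal, and at 5.68 and 9.87 in those of the ad libitum animal. Its changes of 1.25 and -4.20 were opposite in sign to those of PER2, TEF and BHLHE41. HSD11B1 was also counted among the 11 luteal cell markers, all of which changed with these signs. DUSP1 (-1.29 and -2.54), ANGPTL4 (0.39 and -1.36) and ERRFI1 (-0.17 and -1.14) were the other leading genes.

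Of 17 cyclic AMP and immediate early genes 16 were measured, and 4 were lower in the calorie restriction animal (median -0.62) and 6 lower with 1 higher in the ad libitum animal (median -0.79). They were led by EGR3 (-1.60 and -2.86), NR4A3 (-0.42 and -2.39), EGR1 (-1.52 and -1.99) and FOS (-1.92 and -0.92), each given for the calorie restriction and then the ad libitum animal. EGR3, EGR1 and FOS were thus 2-fold lower in sample 2 of the calorie restriction animal, as BHLHE40 was, whereas NR4A3 was not, and the change of FOS in the ad libitum animal was under 2-fold.

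Of 19 hypoxia genes 18 were measured, with none 2-fold apart in the calorie restriction animal (median -0.057), and 4 lower and 1 higher in the ad libitum animal (median -0.59). ADM (-0.98 and -3.22), VEGFA (0.0072 and -3.17), HK2 (0.061 and -2.66) and the oxygen-sensing factor HIF1A (0.17 and -1.62) led it. BHLHE41, known as a gene that low oxygen raises, was higher in the ad libitum animal, where these 4 were lower. There KDM3A, the hypoxia gene that was higher, changed by 1.12 (-0.31 in the calorie restriction animal), and BHLHE40 by 0.083. A link of these changes to low oxygen was not tested.

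**Figure D4:**
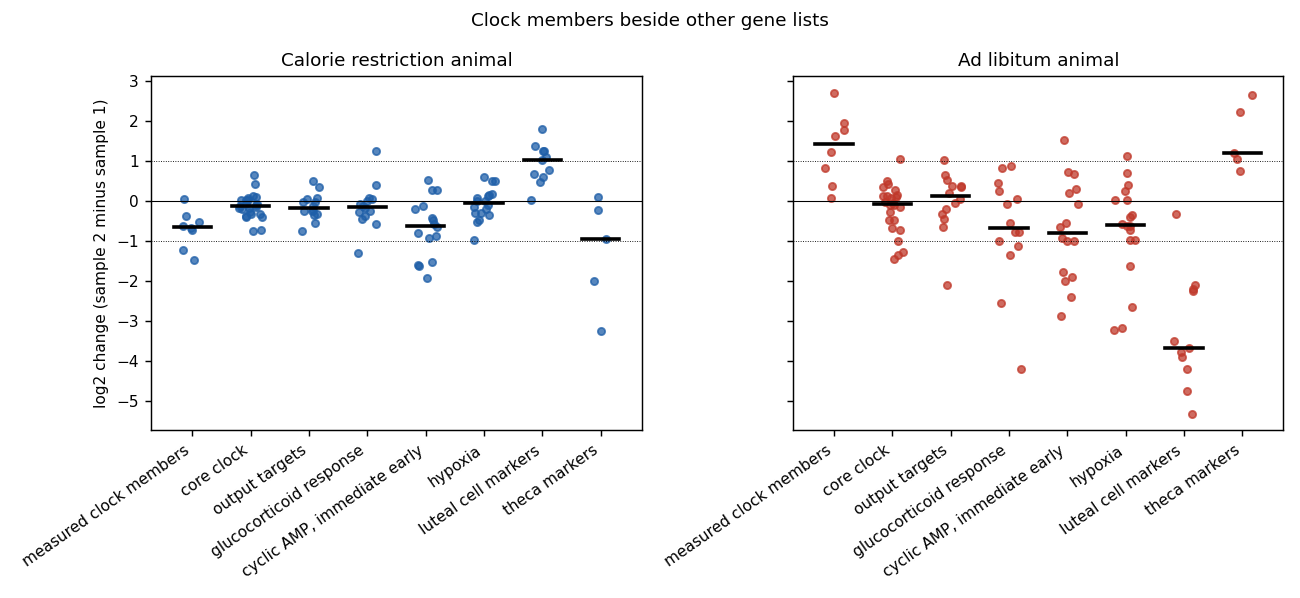
Log2 change (vertical axis) of each gene in the 8 measured clock members and in 7 lists, the calorie restriction animal on the left and the ad libitum animal on the right, with bars at the medians. The clock members (medians -0.66 and 1.43) and the theca markers (-0.94 and 1.19) have the 2 lowest medians of the 8 sets drawn in the calorie restriction animal and the 2 highest in the ad libitum animal, and the luteal markers have the opposite place in each (1.03 and -3.68). The cyclic AMP and immediate early list came close behind the clock members in the calorie restriction animal (-0.62) but had -0.79 in the ad libitum animal. Other marker lists are not drawn, among them the granulosa and follicle markers, whose medians were 0.21 and 1.23.

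Markers of cell types moved in the same samples as the clock genes. Luteal markers had 6 of 11 higher in sample 2 of the calorie restriction animal, and 10 of 11 lower in that of the ad libitum animal. Of the theca and interstitial markers, 4 of 5 had the signs of most clock genes. By 2-fold, 2 of these 5 markers were lower in the calorie restriction animal and 4 of 5 higher in the ad libitum animal. Their mean log2 level was 6.49 and 7.76 in samples 2 and 1 of the calorie restriction animal, and 9.18 and 7.61 in those of the ad libitum animal. Oocyte markers, 9 of 10 measured and most of them below the median level, were at 3.97 and 4.12 in the calorie restriction animal, with none 2-fold apart. In the ad libitum animal they were at 5.54 and 4.19, with 3 higher, among them ZAR1 (3.70) and ZP4 (3.64). Endothelial markers, all 8 measured, were at 7.70 and 8.02 with 1 lower, and at 6.48 and 7.59 with 4 lower. Granulosa and follicle markers, 4 of 5 measured, were at 6.96 and 6.90 in the calorie restriction animal, with none 2-fold apart, and at 8.32 and 7.21 in the ad libitum animal, with 3 higher. Smooth muscle and pericyte markers were at 9.36 and 8.92 with 1 of 6 higher, and at 10.03 and 9.70 with 1 higher and 1 lower. Red blood cell markers, 2 of 4 measured, were at 9.98 and 9.40 in the calorie restriction animal and at 7.84 and 8.80, with 1 lower, in the ad libitum animal. Macrophage, surface epithelium, T and NK cell, and B and plasma cell markers had none 2-fold apart in the calorie restriction animal. In the ad libitum animal 2 of 7 macrophage markers were higher and 1 lower, 1 of 4 epithelium markers was lower, and no T, NK, B or plasma cell marker was 2-fold apart. The bacterial control RNAs added at hybridisation had mean log2 signals of 10.54 and 10.09 in samples 2 and 1 of the calorie restriction animal, and of 9.85 and 10.58 in those of the ad libitum animal. The part of these shifts in the clock gene values was not tested.

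For the 6 clock genes whose samples spanned 1 or more on the log2 scale, the 3 nearest genes by Euclidean distance between 4-sample profiles, each centred on its own mean, were listed. PER2 was nearest to ASTN2 (0.17), XDH (0.23) and BCL11A (0.26), and NR1D2 to CCR1 (0.040), CD36 (0.056) and CSRP2 (0.097). TEF was nearest to GSTM5 (0.20), MYO15B (0.22) and CTSS (0.24), and HLF to MYOCD (0.23), TMC4 (0.24) and WNT2B (0.40). BHLHE40 was nearest to TOX2 (0.25), IRX5 (0.26) and TNFAIP3 (0.30). BHLHE41 had no near neighbour, with FST at 1.12, MMP9 at 1.15 and MFAP4 at 1.15. Among the clock genes themselves the closest pairs were PER2 with TEF (0.33), NR1D2 with DBP (0.36) and PER2 with NR1D2 (0.40). With 4 points a profile, such distances describe these samples and no more.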

How the data were processed

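Per the labels' protocols, cRNA labelled with biotin was made from total RNA of frozen luteal tissue. The annotation is that of a human expression array, with 1 array per sample. Per the submitters' processing notes, Affymetrix Power Tools and RMA gave the deposited log2 values per probe set; their versions were not stated there. Detection over background was not judged, since no scanner file was used, and the number of arrays limits the precision. Labels do not say that an animal's samples were biological replicates of a state, so p-values measure only the spread between these samples.

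Of 54675 probe sets, 62 were controls. Gene symbols numbered 1 on 41091, several on 1801 and none (here) on 11721, and the first of these were used. All 10 members' symbols are in the RefSeq vervet annotation mChlSab1.0.hap1; no coordinates are given. Vervet sequence that differs from a human probe can dim its signal. Genes were represented by the probe set with the highest mean and kept from the median mean up, members always. The median array signal was 3.96 to 4.00 (log2). Differences were tested with limma 3.58.1 in R 4.3.3 (trend, Benjamini-Hochberg), checked on simulated data. The between-animal fit left 2 residual degrees of freedom and the common fit 1.

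The members, lists, tests and alternatives were chosen with earlier results of these data known. Named genes were all members, the 8 leading genes of the clock list and up to 4 of the others by largest change in either animal at or above the median level, and the 3 nearest profiles of members spanning 1 or more. CLOCK, BMAL1, RORB, THRSP, KDM3A, PTGFR and FDX1 were named after their values were seen. The labels do not say whether same-numbered samples of the 2 animals correspond. Changes of the 2 animals correlated at -0.27 across genes, a value that cannot settle this.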

Additional observations from a re-analysis of the deposited data

Results flagged for a closer look

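A total of 7 of the 8 measured clock genes changed in opposite directions in the 2 animals, HLF being the exception, and were set apart for that reason. The difference in the change (calorie restriction minus ad libitum, log2) was -3.93 for BHLHE41, -2.41 for PER2, -2.35 for TEF, -1.75 for NR1D2, -1.55 for BHLHE40, -1.51 for DBP and -0.74 for PER3. With 1 array for each animal and sample number, none of these differences was tested, and if the numbers ran the other way in time in 1 animal the signs would coincide. In BHLHE40 the ad libitum change was 0.083, so its opposite sign rests on a value near 0.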

How the results depend on the processing

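Choice of probe set moved the counts within animals. Members 2-fold apart numbered 2 in the calorie restriction and 5 in the ad libitum animal as reported, 1 and 1 when all probe sets of a gene were averaged, 1 and 0 with their median, and 0 and 3 of 7 without probe sets of less specific design. Those 2-fold apart in the difference of the changes numbered 7 as reported, where 14% of all genes were, and 3, 2 and 3 under these settings. The share of all genes under these settings is not given. Without the less specific probe sets BHLHE41 turned to 0.30 in the calorie restriction animal and to 0.057 in the difference, and DBP to 0.32 in the difference; the cause was not tested. Of the 16 changes within animals, cyclic loess, median centring and averaged probe sets kept all signs (the first 2 with moves of at most 0.078), their median kept 15, and the stricter design 10 of 14. At 1.5-fold, 5 members and 589 of all genes (122 at 2-fold) passed in the calorie restriction animal, and 2450 of all genes (916) in the ad libitum animal, where 6 members did. Between animals, leaving out 1 sample gave 0 to 475 genes past an adjusted p of 0.05 in limma. With sample number as a replicate block 0 genes passed (smallest adjusted p of a member 0.667), and with the crossed pairing, chosen after seeing the data, 0. No paired analysis was possible for the changes within an animal because each has 1 array, and leaving out a sample leaves no residual degree of freedom for the common change.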
